A study of Homo sapiens with 6 samples.

Results

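The clade B serpins SERPINB3 and SERPINB4 and 8 relatives were followed in SUM149 cells, a cell line of human inflammatory breast cancer, after siRNA transfection against TIG1. The set was listed by gene symbol and was picked because SERPINB3 and SERPINB4 read higher after the transfection, so the differences of these genes are given as a description, without a test. Of the 10 listed genes, 8 had at least 1 probe set annotated to a single symbol, and these were 21 of the 54613 probe sets on the array and 8 of the 19775 genes tested. The measured genes were SERPINB3, SERPINB4, SERPINB5, SERPINB7, SERPINB8 and SERPINB13 at chromosome 18q21, covered by 14 probe sets, and SERPINB1 and SERPINB9 at chromosome 6p25, covered by 7. SERPINB2 and SERPINB6 had no probe set annotated to that symbol alone and were not analysed here, and 1 probe set annotated to both SERPINB3 and SERPINB4 was left out.

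The siTIG1 group held 3 arrays of cells given an ON-TARGET Plus pool against TIG1, the gene now called RARRES1, and the siControl group held 3 arrays of cells given a siGENOME non-targeting pool, both at 200 nmol/L with oligofectamine. The pools therefore differed in product line as well as in target. All cells grew with insulin, hydrocortisone and serum. Nothing in the labels says that replicates were separate cultures, so each p-value reflects no more than the scatter among these arrays, and that scatter may be technical.

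Clade B serpins are a branch of the serpin family whose members mostly stay inside the cell. An inhibitory serpin offers a protease an exposed reactive loop as bait, is cut there and traps the enzyme in a covalent complex. SERPINB3 (squamous cell carcinoma antigen 1) inhibits lysosomal cysteine proteases such as cathepsins L, S and K, and its near-identical neighbour SERPINB4 (squamous cell carcinoma antigen 2) inhibits the chymotrypsin-like serine proteases cathepsin G and mast cell chymase. Both were first known as antigens of squamous carcinoma, and both are made in stratified epithelia.

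The start regions of SERPINB3 and SERPINB4 are shown because these genes had the largest differences of the set and kept the same order of arrays. The RefSeq promoter table (GRCh38.p14) held 1 start for each. The 250 bases before the start lie at chr18:63661894-63662143 on the minus strand for SERPINB3 and at chr18:63644257-63644506 on the minus strand for SERPINB4. They are printed 5′ to 3′, and capitals mark the bases that differ between the genes.
SERPINB3: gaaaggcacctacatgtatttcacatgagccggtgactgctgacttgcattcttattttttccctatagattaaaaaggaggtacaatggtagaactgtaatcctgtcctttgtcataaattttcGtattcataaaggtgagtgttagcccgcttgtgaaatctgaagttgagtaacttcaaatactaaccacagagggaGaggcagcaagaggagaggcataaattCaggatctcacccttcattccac
SERPINB4: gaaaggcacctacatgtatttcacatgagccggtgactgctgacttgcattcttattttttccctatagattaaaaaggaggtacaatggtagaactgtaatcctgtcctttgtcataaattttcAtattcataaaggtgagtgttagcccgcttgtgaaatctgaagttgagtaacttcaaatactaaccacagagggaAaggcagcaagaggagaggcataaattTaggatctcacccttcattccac
The sequences matched at 247 of 250 bases, 98.8%, with no gap. Counted from 1 at the left end, the differences from SERPINB3 to SERPINB4 were G126A, G201A and C228T. Global alignment of the full 300-base windows, which end 50 bases after the start, gave 98.7% identity for this pair and 42.6% to 49.1% between SERPINB3 and the first listed start of each other gene of the set. Those other alignments held 66 to 110 gap letters. Windows of unrelated genes were not aligned for scale, so the lower shares do not show likeness.

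Short motifs were counted on both strands in these 300-base windows, as letters only. The AP-1 motif TGANTCA, present in 7.71% of the 35116 windows of the table, had no match at SERPINB3 or SERPINB4. It had a match at SERPINB5, SERPINB7, SERPINB8, SERPINB13 and SERPINB2, all at 18q21. Neither SERPINB3 nor SERPINB4 held the STAT motif TTCNNNGAA (7.66% of windows), its STAT6 form with 1 more base in the middle (6.44%), the interferon response motif (3.57%) or the letters TATAAA (11.5%). TTCNNNGAA matched at SERPINB1, SERPINB7 and SERPINB8.

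Before the values, 1 array needs naming. Values are log2 signals as deposited. Arrays of the siTIG1 group correlated at 0.998 to 0.999 over all probe sets and siControl replicates 1 and 2 at 0.998, but siControl replicate 3 correlated with those controls at only 0.985, so calls are counted with and without it. TIG1 itself, on the probe set that represents the gene, read 12.69, 11.95 and 11.87 on the siTIG1 arrays, against 12.65, 12.61 and 13.74 on the siControl arrays. The groups overlapped on this probe set, and TIG1 differed, at -0.83 ± 0.36 (SE), without passing (limma adjusted p = 0.25 over all genes, and 0.12 without siControl replicate 3). On the other 2 TIG1 probe sets every siTIG1 array lay below every control. Probe set 1 read 10.72, 10.03 and 9.96 on the siTIG1 arrays, against 11.04, 10.92 and 12.58 on the siControl arrays, a difference of -1.28 ± 0.46 (SE, limma adjusted p = 0.20 among probe sets). Probe set 2 was at -1.24 ± 0.48 (SE, limma adjusted p = 0.23 among probe sets). Both passed without siControl replicate 3, at -0.75 and -0.68 (limma adjusted p = 0.024 and 0.043 among probe sets). Of 9 measured epithelial markers 8 had a mean above the median gene level of 8.69, against 1 of 8 leukocyte markers, and the leukocyte antigen PTPRC read 6.55 to 6.69 on the siTIG1 arrays and 6.65 to 6.77 on the siControl arrays.

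SERPINB4 had the third highest difference of the 19775 genes and SERPINB3 the seventh. SERPINB4 was measured by 1 probe set, which read 11.29, 10.95 and 11.12 on the siTIG1 arrays, against 8.11, 8.42 and 7.17 on the siControl arrays. The lowest siTIG1 array lay 2.52 above the highest control. The mean was 11.12 ± 0.17 in the siTIG1 group and 7.90 ± 0.65 in the siControl group (SD, n = 3 each), a log2 difference of 3.22 ± 0.31 (SE) or 9.29-fold. The control mean lies under the median gene level and carries no detection call, so the fold against it may be too small.

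SERPINB3 was higher on both of its probe sets. Probe set 2, which represents the gene, read 11.60, 11.35 and 11.47 on the siTIG1 arrays, against 9.08, 9.20 and 7.97 on the siControl arrays, with a gap of 2.15 between the groups. Its log2 difference was 2.72 ± 0.32 (SE), 6.59-fold. Probe set 1, an x_at probe set that can bind several transcripts, read 11.97, 11.87 and 11.88 on the siTIG1 arrays, against 9.83, 10.02 and 9.05 on the siControl arrays. The groups were apart here too, with a log2 difference of 2.27 ± 0.24 (SE) or 4.83-fold. Because the genes are so alike in sequence, the probe sets of one can pick up the other. How much of either signal is its own was not tested.

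**Figure D1:**
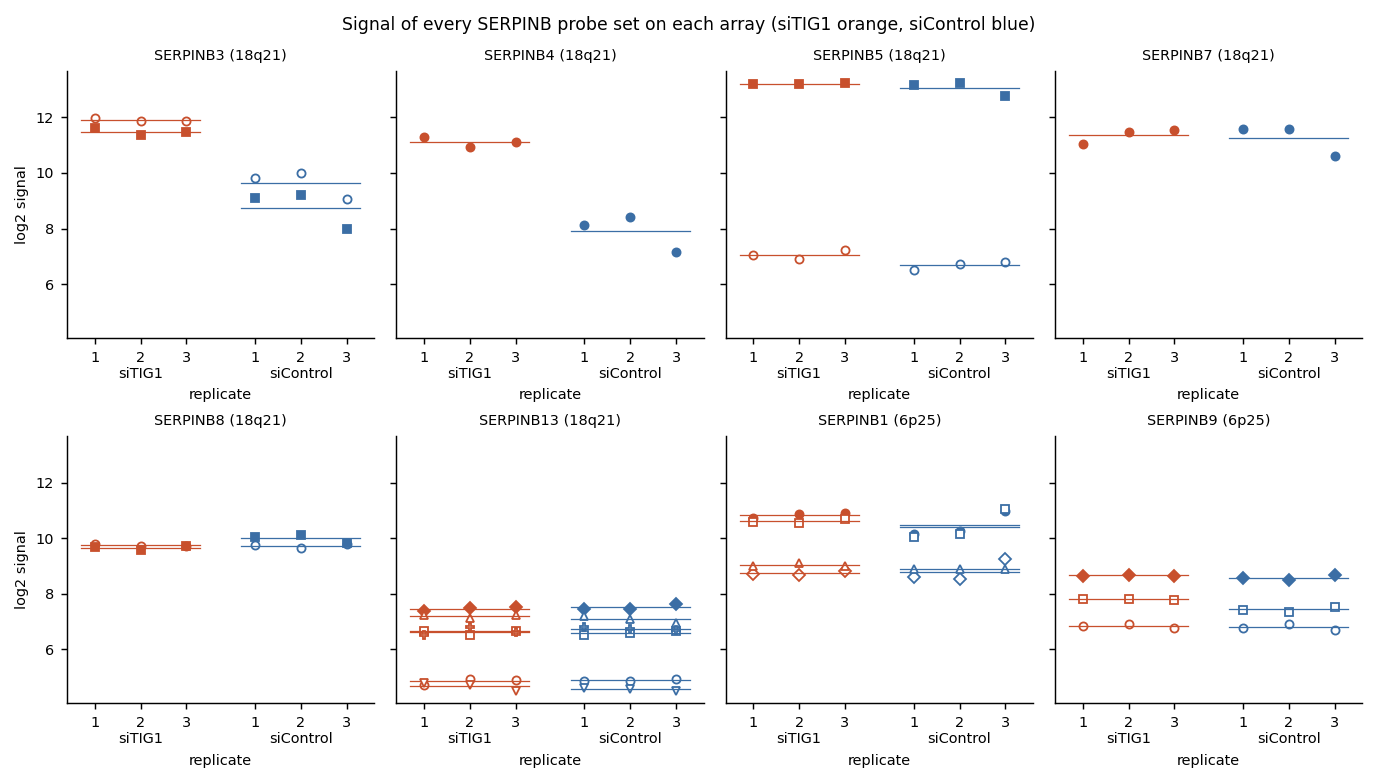
Log2 signal (vertical axis) of all 21 SERPINB probe sets on each of the 6 arrays, one panel per gene, siTIG1 in orange and siControl in blue. Lines are group means, marker shapes tell the probe sets of a gene apart and filled markers are the probe set that represents the gene. SERPINB3 and SERPINB4 stand well above every control array on all 3 of their probe sets. In the other panels the group means differ by -0.34 to 0.37.

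Within each group SERPINB3 and SERPINB4 followed each other from array to array. Both read lowest on siControl replicate 3, SERPINB3 by 1.17 and SERPINB4 by 1.10 below the mean of the other controls, and both read highest among the siTIG1 arrays on replicate 1. As deviations from each gene's 6-array mean, the root mean square distance between their patterns was 0.26. TIG1 was also highest on those arrays of each group, so in the siControl group the array with most TIG1 signal had least SERPINB3 and SERPINB4, whereas in the siTIG1 group the array with most TIG1 signal had most. Without siControl replicate 3 the difference was 2.33 ± 0.08 (SE) for SERPINB3 and 2.85 ± 0.11 (SE) for SERPINB4.

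One of 2 signs of RNA quality kept the groups apart, and both were highest on siControl replicate 3, where SERPINB3 and SERPINB4 read lowest. The signal of ACTB at its 3′ end minus that at its 5′ end, a gap that widens with RNA breakdown, went from 2.14 to 2.34 on the siTIG1 arrays and from 2.62 to 3.21 on the siControl arrays, highest on siControl replicate 3. The same gap for GAPDH overlapped between the groups, at 0.46 to 0.47 on the siTIG1 arrays and 0.46 to 0.57 on the siControl arrays. Its highest value was on siControl replicate 3 too. The summed linear signal of 10 fibroblast markers was 6035 to 6435 on the siTIG1 arrays and 4431 to 4971 on the siControl arrays. FAP alone made this gap, and the other 9 overlapped, at 2750 to 2979 on the siTIG1 arrays and 2623 to 3281 on the siControl arrays. For 9 epithelial markers the sum was 90231 to 95976 on the siTIG1 arrays and 86647 to 87429 on the siControl arrays. KRT19 made most of that gap, 6029 of 6746 between the group means, and the other 8 overlapped, at 76719 to 84324 on the siTIG1 arrays and 80462 to 81840 on the siControl arrays. For 8 leukocyte markers the sum was 1705 to 1753 on the siTIG1 arrays and 1498 to 1885 on the siControl arrays. For 10 endothelial markers it was 2694 to 2714 on the siTIG1 arrays and 2771 to 3474 on the siControl arrays. ROBO4 alone made this gap, and the other 9 overlapped, at 2161 to 2204 on the siTIG1 arrays and 2090 to 2183 on the siControl arrays. The part of RNA quality and of these markers in the SERPINB3 and SERPINB4 differences was not tested.

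By the root mean square distance of deviations over the 6 arrays, the genes outside the set most like the mean of SERPINB3 and SERPINB4 were GBP1, an interferon-inducible GTPase (0.15), NPY1R, a neuropeptide Y receptor (0.18), and MMP7, the metalloproteinase matrilysin (0.21). Next came EGR1, an immediate-early transcription factor (0.22), and SULT1E1, the estrogen sulfotransferase (0.41). Their log2 differences were 3.24 for GBP1, 2.98 for NPY1R, 2.80 for MMP7, 2.79 for EGR1 and 2.22 for SULT1E1, against 2.97 for the mean of SERPINB3 and SERPINB4. All 5 also read lowest on siControl replicate 3, which their choice favoured, since that array enters the distance. A measure over 6 arrays in 2 groups mostly finds genes with a difference of like size.

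**Figure D2:**
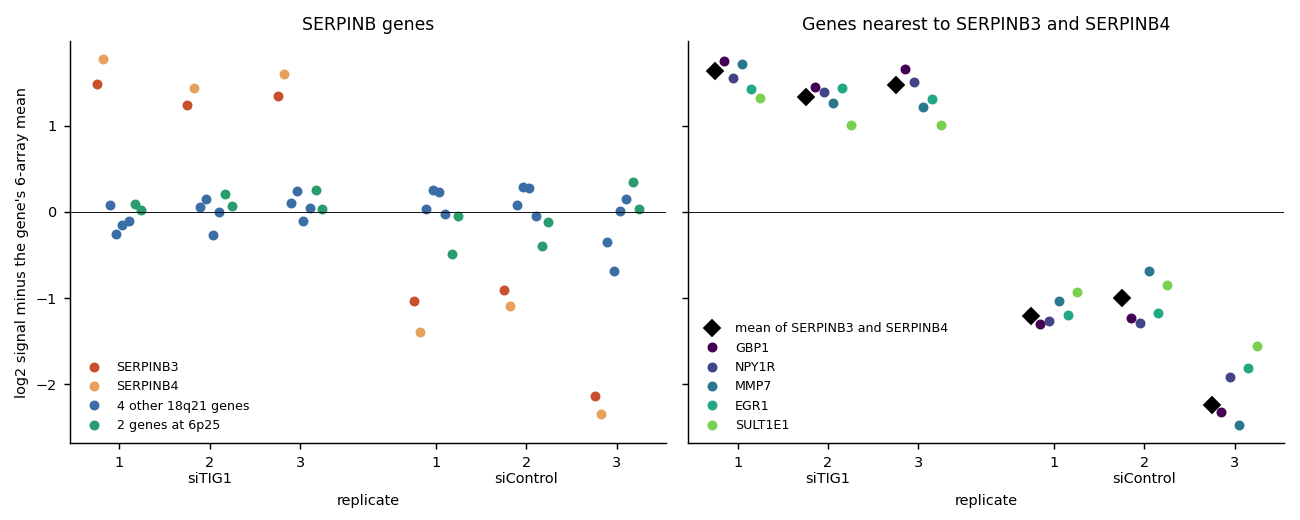
Log2 signal minus each gene's mean over the 6 arrays (vertical axis) by array, for the 8 SERPINB genes (left) and for the 5 genes nearest to the mean of SERPINB3 and SERPINB4 (right, black diamonds for that mean). SERPINB3, SERPINB4 and the 5 genes lie above 0 on all siTIG1 arrays, below 0 on all siControl arrays and lowest on siControl replicate 3, while the other 6 SERPINB genes stay within 0.7 of 0. The 5 genes were chosen for their likeness over these arrays.

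None of the other 6 measured SERPINB genes passed limma's threshold of an adjusted p under 0.05 over all genes, against 7.29% of the 19775 genes. At an unadjusted p under 0.05 the count was 1 of 6, SERPINB8, against 21.9% of all genes. Only for SERPINB8 did the groups not overlap, and its lower siTIG1 values are of a kind found in 15.3% of all genes, with 31.8% apart in either direction. These shares are given for scale, since the set was picked on this comparison.

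SERPINB8, an inhibitor of the proprotein convertase furin, had the largest difference of the 4 further genes at 18q21. Probe set 2, which represents it, read 9.67, 9.56 and 9.73 on the siTIG1 arrays, against 10.05, 10.10 and 9.84 on the siControl arrays. All siTIG1 arrays lay below all controls, by a gap of 0.11. The log2 difference was -0.34 ± 0.09 (SE, limma adjusted p = 0.071), and without siControl replicate 3 it was -0.42 ± 0.06 (SE) and passed (limma adjusted p = 0.00080). Probe set 1 did not share it, with 9.78, 9.74 and 9.72 on the siTIG1 arrays, against 9.76, 9.66 and 9.80 on the siControl arrays, and came to 0.01 ± 0.06 (SE, limma adjusted p = 0.97 among probe sets).

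SERPINB5 is maspin, a serpin without protease inhibition that was found in mammary epithelium as a candidate tumour suppressor. Its representative probe set read 13.22, 13.20 and 13.25 on the siTIG1 arrays, against 13.17, 13.22 and 12.79 on the siControl arrays. The groups overlapped and the low control was again replicate 3. Its difference, 0.16 ± 0.12 (SE, limma adjusted p = 0.51), shrank to 0.02 ± 0.05 without that array. Its other probe set read far lower, at 7.04, 6.89 and 7.21 on the siTIG1 arrays, against 6.51, 6.74 and 6.80 on the siControl arrays. There the groups did not overlap and the difference was 0.37 ± 0.11 (SE, limma adjusted p = 0.13 among probe sets, and 0.018 without siControl replicate 3).

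SERPINB7, known as megsin and made in the upper epidermis, read 11.06, 11.46 and 11.56 on the siTIG1 arrays, against 11.57, 11.60 and 10.62 on the siControl arrays. The siTIG1 arrays lay within the range of the controls. The difference was 0.10 ± 0.29 (SE, limma adjusted p = 0.89) and turned to -0.23 ± 0.12 (SE, limma adjusted p = 0.22) without siControl replicate 3, which read 0.96 below the other controls.

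SERPINB13, also called headpin, inhibits cathepsins L and K and is made in squamous epithelium. Its 6 probe sets all read below the median gene level, from 4.52 to 7.53 on the siTIG1 arrays and from 4.49 to 7.63 on the siControl arrays. Groups overlapped on each of them. Of the differences 3 were above 0 and 3 below, from -0.09 to 0.11, and the representative one stood at -0.05 ± 0.08 (SE, limma adjusted p = 0.79). No detection call comes with these values, so SERPINB13 is not shown to be expressed in either group.

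At 6p25, SERPINB1 inhibits neutrophil serine proteases such as elastase and cathepsin G. Its representative probe set read 10.74, 10.86 and 10.90 on the siTIG1 arrays, against 10.16, 10.26 and 11.00 on the siControl arrays. The siTIG1 arrays exceeded 2 of the controls and lay below replicate 3, which read 0.79 above the others, the opposite of its place for SERPINB3 and SERPINB4. The difference was 0.36 ± 0.22 (SE, limma adjusted p = 0.41) with all arrays and 0.63 ± 0.06 (SE, limma adjusted p = 0.00011) without that control. Probe sets 2 and 3 had the same high reading on siControl replicate 3, by 0.96 and 0.68. Probe set 4 did not, and there the siTIG1 arrays averaged 9.04 ± 0.06, against 8.90 ± 0.01 on the siControl arrays (SD, n = 3 each). The groups were apart by 0.09, at 0.14 ± 0.05 (SE, limma adjusted p = 0.21 among probe sets).

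SERPINB9 inhibits granzyme B, the killing protease of cytotoxic lymphocytes, and protects the cells that make it. Its representative probe set read 8.65, 8.69 and 8.66 on the siTIG1 arrays, against 8.58, 8.50 and 8.66 on the siControl arrays, and its difference, 0.09 ± 0.06 (SE), missed the threshold (limma adjusted p = 0.47). Probe set 2 read 7.81, 7.82 and 7.76 on the siTIG1 arrays, against 7.44, 7.36 and 7.53 on the siControl arrays. The groups were apart there by 0.24, and the difference of 0.36 ± 0.06 (SE) passed over all probe sets (limma adjusted p = 0.027). Any single array but siControl replicate 3, once omitted, took this call away (limma adjusted p = 0.083 to 0.14), and without that replicate it was 0.0013. The remaining probe set stood at 0.05 ± 0.07 (SE, limma adjusted p = 0.80).

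Counted by probe set, 1 of the 18 belonging to these 6 genes passed, as higher, against 5.01% of all probe sets and 2.14% as higher. On 4 of 18 the groups did not overlap, 3 higher and 1 lower, against 27.8% of all probe sets, 14.8% higher and 13% lower. Without siControl replicate 3, 2 of the 6 genes passed, SERPINB1 as higher and SERPINB8 as lower, against 27.1% of all genes, 12.2% higher and 14.8% lower. Then 5 of the 18 probe sets passed, 4 higher and 1 lower, against 18.9% of all probe sets, 7.87% higher and 11% lower.

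**Figure D3:**
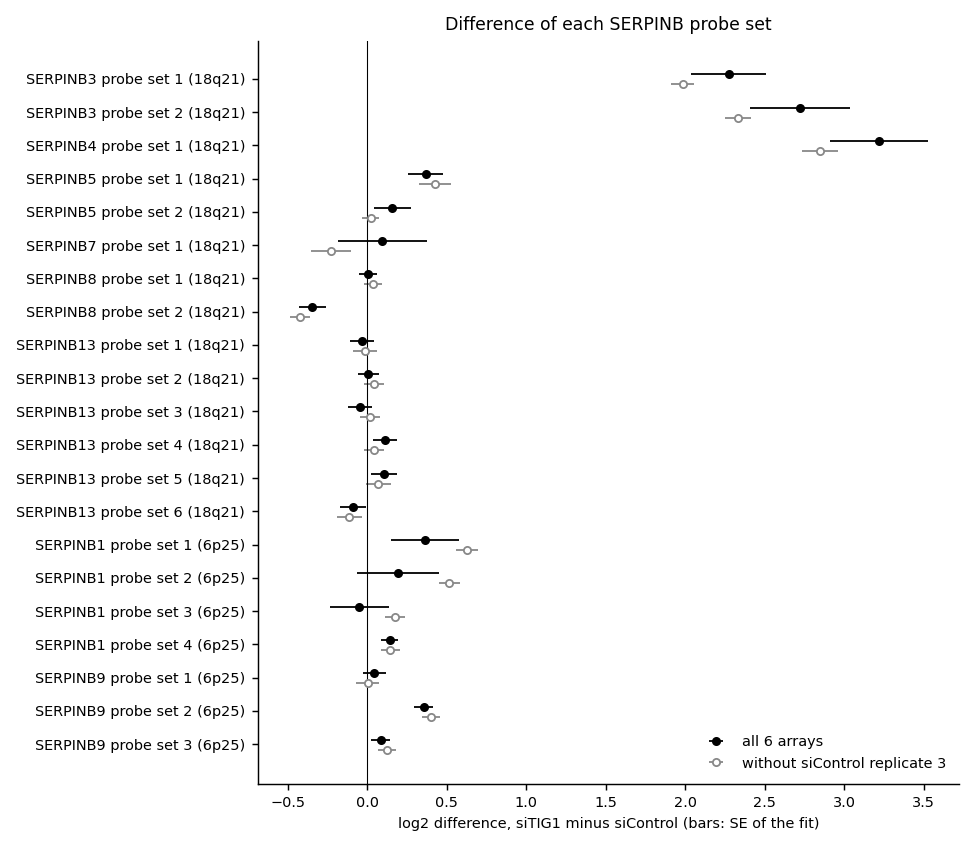
Log2 difference, siTIG1 minus siControl, with the SE of the fit (horizontal axis) for each of the 21 SERPINB probe sets, grouped by gene and locus. Filled points use all 6 arrays and open points leave out siControl replicate 3. The 3 probe sets of SERPINB3 and SERPINB4 lie between 1.98 and 3.22, and all others between -0.42 and 0.63.

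By locus the differences were mixed. The 6 measured genes at 18q21 ran from -0.34 to 3.22 on the log2 scale, with a median difference of 0.13. Without SERPINB3 and SERPINB4 the remaining 4 had a median of 0.03, with 2 above 0 and 2 below. Both genes at 6p25 differed by amounts above 0, with a median of 0.22. Without siControl replicate 3 the medians were -0.10 for those 4 genes and 0.38 for the 2 at 6p25, against 0.02 over all genes. No p-value is given for these medians, because the genes were chosen with results known.

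On the chromosome, SERPINB4 and SERPINB3 are next to each other in the RefSeq table, between SERPINB13 on the side of SERPINB5 and SERPINB11 on the side of SERPINB7. SERPINB11, the measured gene next to SERPINB3, read 6.10, 6.11 and 6.11 on the siTIG1 arrays, against 6.09, 6.05 and 6.05 on the siControl arrays. Its difference was 0.04 ± 0.05 (SE, limma adjusted p = 0.67). SERPINB12 differed by 0.08 ± 0.07 (SE, limma adjusted p = 0.55) and SERPINB10 by -0.01 ± 0.10 (SE, limma adjusted p = 0.96). All 3 read under the median gene level on every array.

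Of 7 other measured genes within 500000 bases of the 18q21 genes, 1 fell and 6 did not pass, with a median difference of -0.02, against 4.14% of all genes that passed as lower and 3.16% as higher. The one that fell was KDSR, an enzyme of sphingolipid synthesis, at 12.47, 12.39 and 12.41 on the siTIG1 arrays, against 12.77, 12.74 and 12.77 on the siControl arrays. All siTIG1 arrays lay below the controls, with a difference of -0.34 ± 0.05 (SE, limma adjusted p = 0.014, lost without any single array other than siControl replicate 3). BCL2, the apoptosis inhibitor, differed by -0.11 ± 0.13 (SE, limma adjusted p = 0.70). Without siControl replicate 3, KDSR and PHLPP1, a phosphatase of AKT, fell, the second by 0.49 (limma adjusted p = 0.00056), against 14.8% of all genes. Around the 6p25 genes none of 14 measured neighbours passed by limma (median 0.02), against 7.29% of all genes. At an unadjusted p under 0.05 were 2 of the 14, LINC01600 at 0.13 and WRNIP1 at -0.23, against 21.9% of all genes. Of those 14 the tubulin gene TUBB2A differed most, by 0.65 ± 0.30 (SE, limma adjusted p = 0.27). In the fit without siControl replicate 3, 2 of the 14 passed, against 27.1% of all genes. They were TUBB2A, higher by 0.29 (limma adjusted p = 0.0043), and WRNIP1, at -0.24 (limma adjusted p = 0.015).

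**Figure D4:**
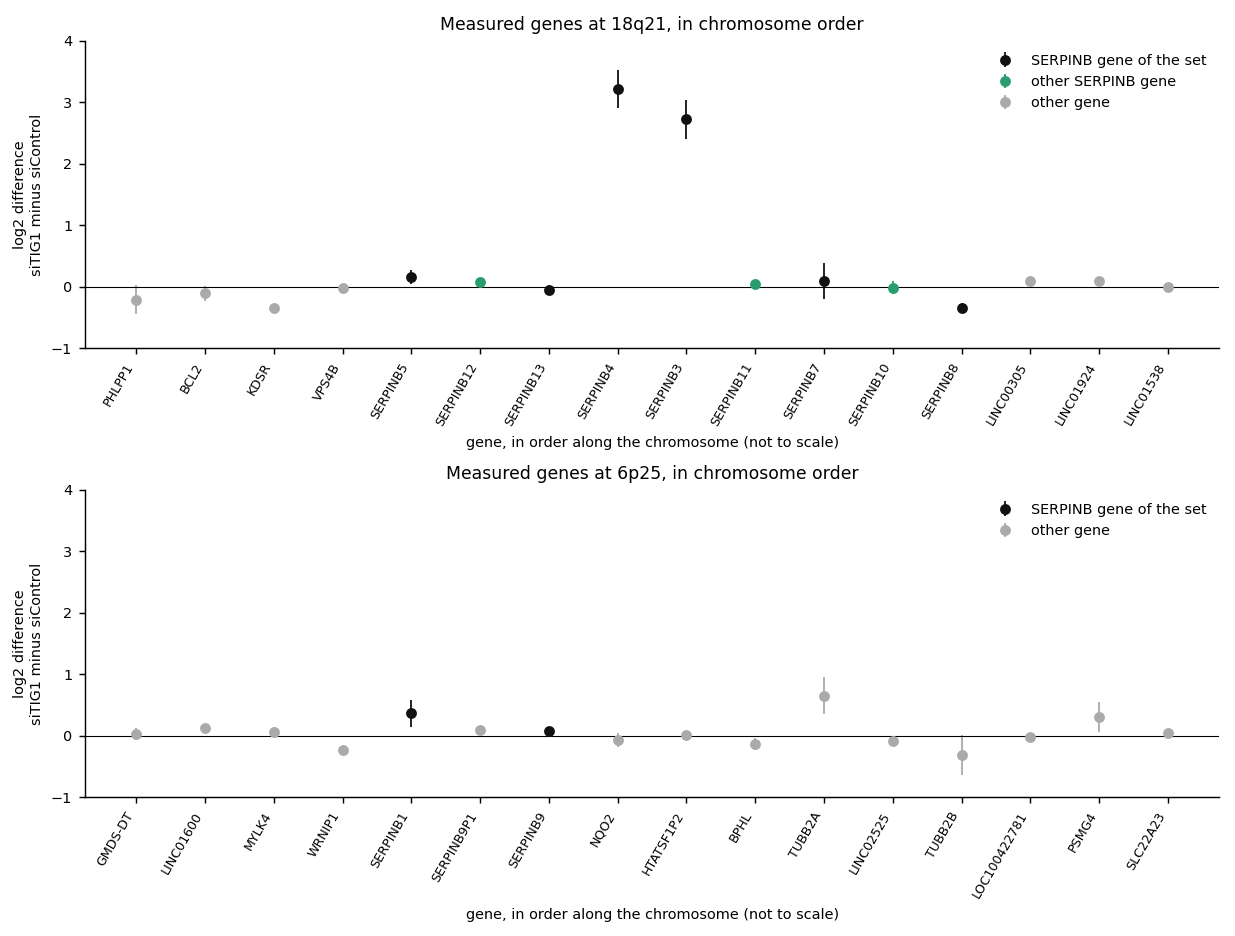
Log2 difference, siTIG1 minus siControl, with the SE of the fit (vertical axis) for the measured genes around the SERPINB clusters at 18q21 (top) and 6p25 (bottom), in chromosome order and not to scale. Black points are genes of the set, green points other SERPINB genes and grey points other genes. SERPINB4 and SERPINB3, at 3.22 and 2.72, stand beside neighbours between -0.34 and 0.16 at 18q21.

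Serpins outside clade B were looked at next. Of 19 measured, 2 rose, none fell and 17 did not pass, with a median difference of 0.09, against 0.02 over all genes, of which 3.16% passed as higher and 4.14% as lower. SERPINA3, antichymotrypsin, which inhibits cathepsin G and chymase as SERPINB4 does but is secreted, read 11.40, 10.94 and 10.93 on the siTIG1 arrays, against 9.08, 9.12 and 9.05 on the siControl arrays. The controls were close together, siControl replicate 3 included, and the difference was 2.01 ± 0.13 (SE, limma adjusted p = 0.0022). SERPINH1, the collagen chaperone HSP47, rose by 0.60 ± 0.12 (SE, limma adjusted p = 0.040). Without siControl replicate 3, 6 of these serpins rose and none fell, in a fit where 12.2% of all genes passed as higher and 14.8% as lower.

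The proteases on the other side of these inhibitors were listed with related genes, 26 in all, each measured. Of them 1 rose, 1 fell and 24 did not pass, against 3.16% of all genes that passed as higher and 4.14% as lower. The median difference was 0.06. Cathepsin B (CTSB) rose by 0.28 ± 0.06 (SE, limma adjusted p = 0.036), and HTRA1, a secreted serine protease not known as a target of the set, fell by 0.65 (SE 0.11, limma adjusted p = 0.021). Cathepsin V (CTSV), a close relative of cathepsin L, read 10.99, 11.23 and 11.18 on the siTIG1 arrays, against 10.62, 10.67 and 9.38 on the siControl arrays. Its groups did not overlap, but the low reading of siControl replicate 3 widened the difference, and 0.91 ± 0.35 (SE) missed the threshold (limma adjusted p = 0.19). Without that array it was 0.49 ± 0.07 (SE) and passed (limma adjusted p = 0.0010). Urokinase (PLAU) differed by 0.43 ± 0.17 (SE, limma adjusted p = 0.22), and by 0.23 without siControl replicate 3, which passed (limma adjusted p = 0.040). In that fit 8 genes of the list rose and 2 fell, against 12.2% and 14.8% of all genes.

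Among 12 measured genes listed with protease inhibitors of other families, cystatin M (CST6), which inhibits cathepsins of the epidermis, rose by 0.80 ± 0.11 (SE, limma adjusted p = 0.013). Its means, 8.66 in the siTIG1 group and 7.86 in the siControl group, lay under the median gene level. BIRC2, the ubiquitin ligase cIAP1, rose by 0.33 ± 0.07 (SE, limma adjusted p = 0.045). None fell, 10 did not pass and the median was 0.04, against 3.16% of all genes that passed as higher and 4.14% as lower. SPINK6, an inhibitor of kallikreins, read 12.52, 12.80 and 12.71 on the siTIG1 arrays, against 12.27, 12.29 and 9.84 on the siControl arrays. Its groups did not overlap, but the low reading of siControl replicate 3 widened the difference to 1.21 ± 0.65 (SE, limma adjusted p = 0.35). The difference was 0.40 without it and passed (limma adjusted p = 0.0045). Without that array 6 genes of this list rose and 3 fell, against 12.2% and 14.8% of all genes.

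SERPINB3, SERPINB4 and SERPINB13 are made as squamous epithelium matures, so 36 genes listed for squamous differentiation were looked at too. Of 31 measured, 4 rose, none fell and 27 did not pass, against 3.16% of all genes that passed as higher and 4.14% as lower. The median difference was 0.06, against 0.02 over all genes. IVL, LORICRIN and FLG, which did not pass, were at 0.06, 0.07 and -0.04, all at signals under the median gene level. TP63, KRT6A, KRT6B, SPRR2A and SPRR2D had no probe set annotated to that symbol alone. The desmosomal cadherin DSG3 read 11.16, 11.27 and 11.28 on the siTIG1 arrays, against 9.89, 9.87 and 10.21 on the siControl arrays, a difference of 1.25 ± 0.10 (SE, limma adjusted p = 0.0031). The groups were well apart. DSC3, a partner of DSG3 in desmosomes, rose by 0.32 ± 0.05 (SE, limma adjusted p = 0.016). The calprotectin subunits S100A8 and S100A9 rose by 0.80 ± 0.07 and 0.43 ± 0.06 (SE, limma adjusted p = 0.0037 and 0.014), both at signals under the median gene level. Periplakin (PPL), of the cornified envelope, was at -0.51 ± 0.48 (SE, limma adjusted p = 0.61), and its control arrays spread widely, with replicate 3 at 10.70 and the other controls at 8.90 and 8.97. Without that array its difference turned to 0.08 (limma adjusted p = 0.62). In the same fit 6 genes of the list rose and 1 fell, against 12.2% and 14.8% of all genes.

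Cytokines that act through STAT factors are reported to induce SERPINB3 and SERPINB4 in keratinocytes. The list made for them also held the receptor genes IL17RA, IL17RC and TNFRSF1A and the transcription factor genes ELF3, HIF1A and EPAS1. Of 31 measured genes of this list 4 rose, none fell and 27 did not pass, with a median difference of 0.07. Of all genes 3.16% passed as higher and 4.14% as lower, with a median of 0.02. The rises were IFNGR1, a chain of the interferon gamma receptor (0.52 ± 0.06 SE, limma adjusted p = 0.0085), the transcription factor STAT3 (0.57 ± 0.08 SE, limma adjusted p = 0.016), the shared receptor chain IL10RB (0.43 ± 0.07 SE, limma adjusted p = 0.019) and the gp130 gene IL6ST (0.36 ± 0.06 SE, limma adjusted p = 0.026). On STAT3, 3 of 4 probe sets had this sign. The decoy receptor IL13RA2 was at -0.99 ± 0.51 (SE, limma adjusted p = 0.33), and its control arrays spread too, with replicate 3 at 10.28 and the other controls at 8.36 and 8.41. Without that array it fell by 0.36 and passed (limma adjusted p = 0.025). In the same fit 11 genes of the list rose and 3 fell, against 12.2% and 14.8% of all genes. TNFRSF1A, ELF3 and HIF1A were among these rises and EPAS1 among the falls.

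Of the marker lists, KRT19, a keratin of simple epithelium, rose by 1.00 ± 0.15 (SE, limma adjusted p = 0.016) among 9 epithelial genes. No leukocyte, fibroblast or endothelial marker passed by limma, nor did one have an unadjusted p under 0.05 except FAP and ROBO4. Over all genes 3.16% passed as higher and 4.14% as lower, and 21.9% had an unadjusted p under 0.05. FAP, a protease of activated fibroblasts, differed by 0.92 ± 0.26 (SE, limma adjusted p = 0.10). In the fit lacking siControl replicate 3, 5 epithelial markers rose and 1 fell. Of the other marker lists 4 genes passed in that fit, CD14 of the monocyte surface at 0.80 (limma adjusted p = 1.6e-05), FAP at 0.60 (0.00017), the smooth muscle actin ACTA2 at 0.32 (0.0019) and the endothelial receptor ROBO4 at -0.35 (0.0018). The share of all genes passing there was 27.1%. The 16 genes of these lists named as passing with all 6 arrays, from KDSR to KRT19, all passed without siControl replicate 3, and 3 of them, SERPINA3, S100A8 and DSG3, passed with any 1 array left out. The other 13 lost the call without at least 1 of the arrays other than siControl replicate 3 (highest limma adjusted p = 0.17, for BIRC2).

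**Figure D5:**
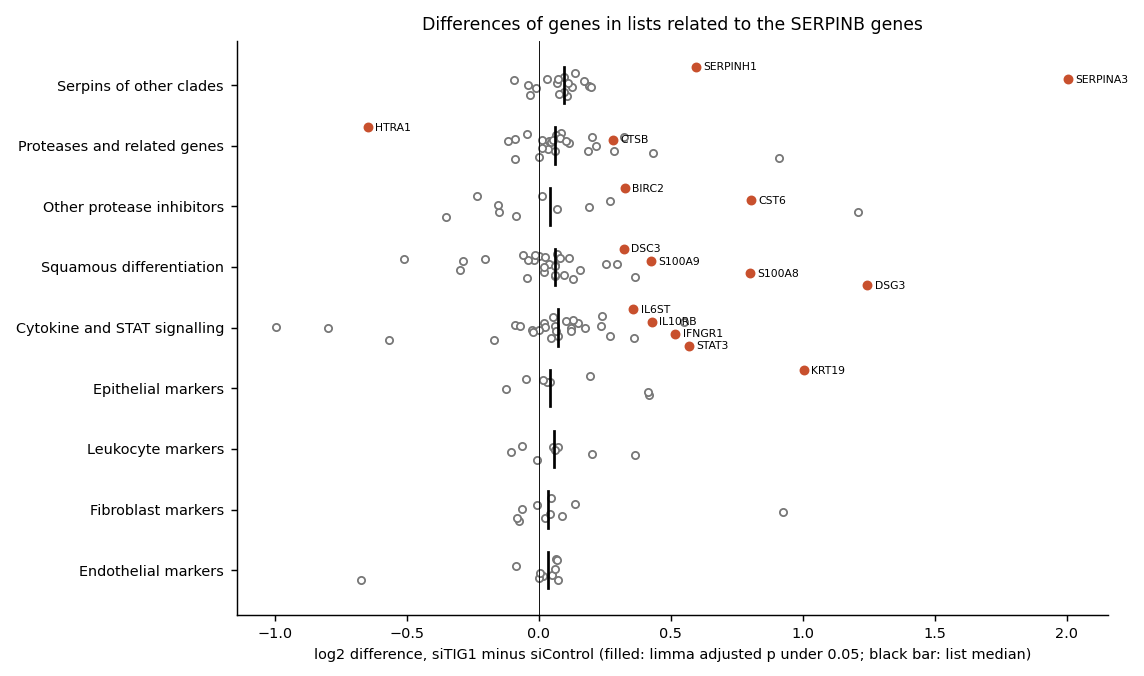
Log2 difference, siTIG1 minus siControl (horizontal axis), of each measured gene in 9 lists related to the SERPINB genes or marking cell types, with a row per list and vertical scatter added for legibility. Filled, named points passed limma's threshold of 0.05 over all genes, open points did not, and black bars are list medians. SERPINA3 at 2.01 and DSG3 at 1.25 lie farthest to the right, and all list medians lie between 0.03 and 0.09.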

How the data were processed

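Expression was measured on Affymetrix HGU133 plus arrays hybridised with biotin-labelled cRNA. The deposited table gives 1 log2 value per probe set and array, already normalized between arrays by the authors, since array medians lie between 7.87 and 7.90. The log base is not written in it and was taken from the range of the values. MAS5 and RMA are named in the submitters' processing notes, without saying which one made the values.

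Of 54613 probe sets other than controls, 41091 had 1 gene symbol, 1801 several and 11721 none listed. Symbols were updated by gene number through RefSeq (GRCh38.p14), which held 19735 of 19775 genes. A gene was represented by its probe set with the highest mean, with x_at probe sets only where there was no other. Probe sets are numbered in the order of their identifiers. The siTIG1 and siControl arrays were compared by 2-sided limma tests (version 3.58.1, R 4.3.3, lmFit and eBayes, no block), adjusted by Benjamini-Hochberg over all genes or all probe sets, at a threshold of 0.05. SE is that of the moderated fit. Promoter windows were aligned globally. The fit was also run on simulated data with independent noise and no deviant array. That run cannot show how siControl replicate 3 affects the calls.

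Genes and lists were chosen with earlier results of these data known. Named genes were all members, TIG1, up to 4 passing genes and 1 to 2 others by size from each list, and the 5 nearest in pattern. LINC01600, WRNIP1, SERPINB10, SERPINB11, SERPINB12, BCL2, PHLPP1, CD14 and ACTA2 were added after their values were seen. So were IVL, LORICRIN, FLG, IL17RA, IL17RC, TNFRSF1A, ELF3, HIF1A and EPAS1. Same-numbered replicates did not deviate together (correlations of -0.08, 0.02 and -0.04 over genes), and the arrays were not treated as pairs. Because siControl replicate 3 weighs on the deviations of every control, these correlations cannot exclude pairing. The number of arrays limits the precision. Alternatives were other normalizations, probe set rules, variance models, a block and leaving out each array.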

Additional observations from a re-analysis of the deposited data

How the results depend on the processing

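The differences of SERPINB3 and SERPINB4 kept their sign under all 14 alternatives and moved by less than the spread between replicates. That spread includes siControl replicate 3, which widens it. The ranges were 2.33 to 2.95 and 2.85 to 3.48 over the arrays left out in turn. None of the 6 other genes passed except with array weights (2 genes) or without siControl replicate 3 (0 to 2 over single arrays left out). Of their 18 probe sets 1 passed, against 5 with array weights, 0 with the replicate block and 0 to 5 with single arrays left out. Genes called in the related lists, markers and neighbours aside, numbered 14, against 41 with array weights, 3 with the replicate block and 3 to 46 with single arrays left out. Over all genes the count was 1442, against 5109, 245 and 217 to 5357 under the same changes. SERPINB7 turned from 0.10 to -0.14 with array weights, and ran from -0.23 to 0.26 with single arrays left out, below 0 without siControl replicate 3 or siTIG1 replicate 3. SERPINB13 turned from -0.05 to 0.0095 with the mean of its probe sets and to 0.023 with array weights, and ran from -0.082 to 0.016 with single arrays left out, above 0 without siControl replicate 3. The cause was not tested, apart from fewer arrays or degrees of freedom by construction. The locus medians (-0.10 to 0.08 and 0.15 to 0.38 with single arrays left out) and TIG1 (-1.09 to -0.46) kept within the spread or on their side of the threshold. The 18q21 median nevertheless changed sign in some settings. The filter on dim genes removed SERPINB9 and SERPINB13, so no locus median exists there. Values carry no background estimate, so low signals and folds against them are uncertain.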
